A study of Homo sapiens with 13 samples.

Results

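The 8 genes of cholesterol synthesis and its SREBP control described here were measured in MDA-MB-231 cells, a human triple-negative breast cancer line. They were taken by symbol: HMGCS1, IDI1, FDPS, FDFT1 and SQLE, which encode enzymes of the pathway, and SREBF1, SREBF2 and INSIG1, which encode its regulators. All 8 were among the 24875 gene symbols of the Silvestrol table and the 13121 symbols of the INK128 table. Silvestrol inhibits the RNA helicase eIF4A, and INK128 inhibits the kinase mTOR. The study sequenced ribosome footprints (RFs) and RNA to ask which mRNAs depend on each activity for translation. RFs were sequenced without treatment, after 1 h with DMSO or with Silvestrol, and after 2 h with either. Silvestrol was at 25 nM. The 2 h RFs came from passage 3 and passage 4 (replicates 1 and 2, n = 2 per group), and all other libraries were from passage 3. mRNA at 2 h was sequenced in 1 library for DMSO and 1 for Silvestrol. In a separate experiment RFs and total RNA were sequenced after 2 h of DMSO or 200 nM INK128, in 1 library each. Cells of a single unmodified line were used throughout, and the replicates are consecutive passages of it. The characteristics of the passage 3 Silvestrol RF library at 2 h say 1 h, and those of the DMSO mRNA library say untreated. Their titles were followed, so untreated cells cannot be told apart from DMSO as the source of the control mRNA.

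Cholesterol is built from acetyl units. HMG-CoA synthase (HMGCS1) feeds the mevalonate pathway. Isopentenyl diphosphate isomerase (IDI1) and farnesyl diphosphate synthase (FDPS) build its isoprenoids, squalene synthase (FDFT1) commits them to sterols, and squalene epoxidase (SQLE) opens the sterol branch. The genes of these enzymes are targets of the transcription factors SREBP1 and SREBP2, made from SREBF1 and SREBF2. When sterols are plentiful, INSIG1 and INSIG2 hold the SREBPs and their escort SCAP in the endoplasmic reticulum. When sterols are scarce, the factors are cut free and enter the nucleus, and INSIG1 is itself among their targets.

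Promoter stretches of SREBF2 and INSIG1 are shown because SREBPs read a short DNA element in promoters. RefSeq windows of 250 bases before to 50 bases after a start site (GRCh38.p14) were found for 6 of the 8 genes. They were searched on both strands for the sterol regulatory element, a run of 10 bases given in capitals in the SREBF2 stretch, and for its looser form TCANNCCAC. The exact element was in the window of SREBF2 and in 0.0456% of all 35116 windows. The looser form was in the windows of SREBF2, where it lies inside the exact element, and of INSIG1. It was in 3.82% of all windows. Neither form was found in a window of SREBF1. The stretches are from chr22:41832963-41832988 and chr7:155297762-155297786, both on the plus strand, with the match in capitals.
SREBF2: gacgcgccATCACCCCACgcaccgct
INSIG1: gggcaagcTCAGGCCACgcccctgg
The match starts 134 bases before the start site in SREBF2 and 108 bases before it in INSIG1. A match is a description of these letters only.

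The 5′ UTR, through which eIF4A helps the ribosome to scan, was unusually long in SQLE. On GRCh37, in the MANE Select transcript of GENCODE, it measured 899 nucleotides, longer than 99.0% of the 10291 genes with one. Its predicted folding energy was −346.9 kcal/mol, against a median of −51.5 over all genes, and per base it was −0.386 against −0.376. The 3 annotated SQLE transcripts with a 5′ UTR ranged from 103 to 899 nucleotides, and which of them these cells use was not measured. The 5′ UTRs of the other members were between 92 nucleotides (FDFT1) and 169 nucleotides (SREBF1), near the median of 133. That of HMGCS1 has 126 nucleotides in 3 exons on chromosome 5 (43299068 to 43313514, minus strand) and that of IDI1 has 116 nucleotides in 1 exon on chromosome 10 (1094944 to 1095059, minus strand). The 5′ UTR of SREBF2 has 166 nucleotides on chromosome 22 (42229109 to 42229274, plus strand). It opens with a C in a run of 6 pyrimidines, the letters by which mRNAs with a 5′ terminal oligopyrimidine tract (5′ TOP) are known, and in the other 7 genes this run had 0 or 1 letters. GC content ranged from 57.1% in HMGCS1 to 78.1% in SREBF1.

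Between 2652423 and 50315607 reads per library were counted, fewest for Silvestrol at passage 4. VIM, a mesenchymal marker, had RF levels of 4789 to 7031 RPKM, while ESR1, the estrogen receptor, had 0 reads and CDH1 reached at most 0.108 RPKM. PGR was at most 0.0419 RPKM, and ERBB2 (1.63 to 4.05) and EPCAM (3.24 to 9.94) were low but present. CD44 had 138 to 344 RPKM and EGFR 18.4 to 29.5. After filtering on low values 10505 genes were compared for Silvestrol, including all 8 members, and 7102 for INK128, including 7. SQLE was below the minimum for total RNA in the INK128 table. In each pair of libraries the change of a gene is also given relative to the median gene, which shifted by −0.17 on the log2 scale for RFs at passage 3 and by −1.17 for total RNA with INK128.

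In DMSO-treated cells at 2 h, passage 3, FDFT1 had the highest RF level of the 8 genes, at 303 RPKM, and SQLE the lowest, at 5.46 RPKM. IDI1 (140), INSIG1 (91.2), HMGCS1 (75.9), FDPS (46.7), SREBF1 (34.0) and SREBF2 (24.1) lay between them in this order. At passage 4 the order at the top changed little, with FDFT1 at 480, INSIG1 at 231, IDI1 at 225 and HMGCS1 at 184 RPKM. The order of mRNA levels was different. INSIG1 (114 RPKM) and FDFT1 (124) were highest, FDPS had 86.1, SREBF1 74.9, SREBF2 67.3, IDI1 47.2, HMGCS1 22.0 and SQLE 9.01. Translation efficiency (TE), the RF RPKM divided by the mRNA RPKM, put 3 enzymes above the median gene and the other 5 members below it. TE in DMSO was 3.44 for HMGCS1, 2.96 for IDI1 and 2.43 for FDFT1, where the median over all genes was 1.84. It was 0.80 for INSIG1, 0.61 for SQLE, 0.54 for FDPS, 0.45 for SREBF1 and 0.36 for SREBF2. TE has no replicate here, since mRNA came from 1 library per treatment.

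**Figure D1:**
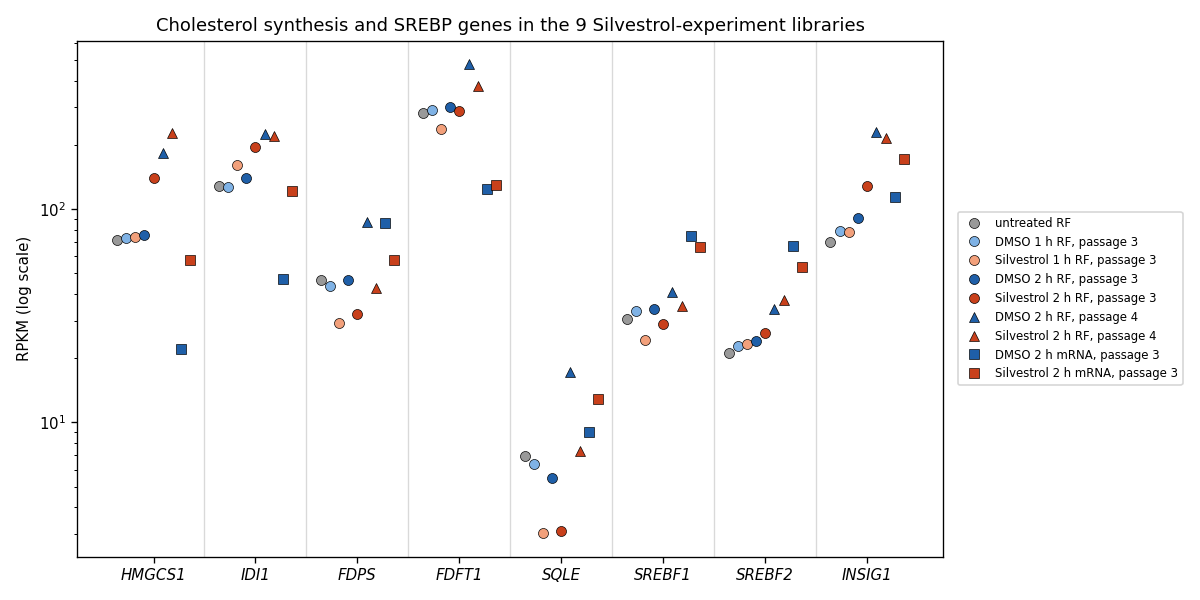
Level of each of the 8 genes in the 9 libraries of the Silvestrol experiment, in RPKM on a log axis, with circles and triangles for RFs and squares for mRNA. Each point is 1 library, and the RF points of passage 4 (triangles) lie above those of passage 3 for the same treatment in every gene.

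HMGCS1 was the gene with the highest RF level relative to DMSO after 2 h of Silvestrol. Its RF level was 75.9 RPKM in DMSO and 139 in Silvestrol at passage 3, and 184 in DMSO and 228 in Silvestrol at passage 4. Silvestrol was above DMSO in both passages, but the ranges of the treatments overlap because the DMSO cells of passage 4 were above the Silvestrol cells of passage 3. Relative to the median gene the difference was 2.07-fold at passage 3 and 1.37-fold at passage 4. IDI1 had 140 and 197 RPKM at passage 3 and 225 and 220 at passage 4, in the order DMSO and Silvestrol. It was 1.59-fold higher than the median gene at passage 3 and 1.08-fold higher at passage 4.

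The later enzymes lay at or below DMSO. SQLE had 5.46 RPKM in DMSO and 3.08 in Silvestrol at passage 3, and 17.2 and 7.32 at passage 4. These values rest on 326 and 90 reads at passage 3, and on 244 and 44 reads at passage 4. The ratio of reads, each scaled to its library's total, was 0.601 at passage 3, with an exact binomial 95% interval of 0.471 to 0.762, and 0.438 at passage 4, with an interval of 0.310 to 0.606. These intervals cover counting error only. Relative to the median gene SQLE was 1.57-fold lower at passage 3 and 2.12-fold lower at passage 4. FDPS had 46.7 and 32.1 RPKM at passage 3 and 87.0 and 42.5 at passage 4. It was the only member whose RPKM in both Silvestrol libraries was below that in both DMSO libraries, as 40.1% of all genes were. In reads scaled to library totals the groups overlapped, with ratios of 0.861 at passage 3 and 0.718 at passage 4. No member had both Silvestrol libraries above both DMSO libraries (0 of 8; 20.5% of all genes did). The counted length of FDPS, the bases that entered its RPKM, differed between libraries. Scaled to the median gene of each library, it was 575 (DMSO) and 676 (Silvestrol) at passage 3 and 685 and 978 at passage 4. FDPS has pseudogene copies, and their part in its values was not tested. FDFT1 had 303 and 288 RPKM at passage 3 and 480 and 380 at passage 4, within 1.14-fold of the median gene in both.

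The SREBP factors differed little between the treatments. SREBF1 had 34.0 RPKM in DMSO and 28.8 in Silvestrol at passage 3, and 41.0 and 35.1 at passage 4. SREBF2 had 24.1 and 26.2 RPKM at passage 3, and 34.1 and 37.4 at passage 4. SREBF2 was 1.23-fold and 1.21-fold higher than the median gene, and SREBF1 was 1.05-fold lower in each passage. INSIG1, the retention factor, had 91.2 and 128 RPKM at passage 3 and 231 and 215 at passage 4. It was 1.59-fold higher than the median gene at passage 3 and 1.03-fold higher at passage 4. Of the 8 genes, 3 were at least 1.5-fold higher than the median gene at passage 3 (14.5% of all genes were) and 1 was at least 1.5-fold lower (21.5% of all genes). At passage 4 none was at least 1.5-fold higher (0 genes; 15.7% of all genes were) and 2, SQLE and FDPS, were at least 1.5-fold lower (21.7%).

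**Figure D2:**
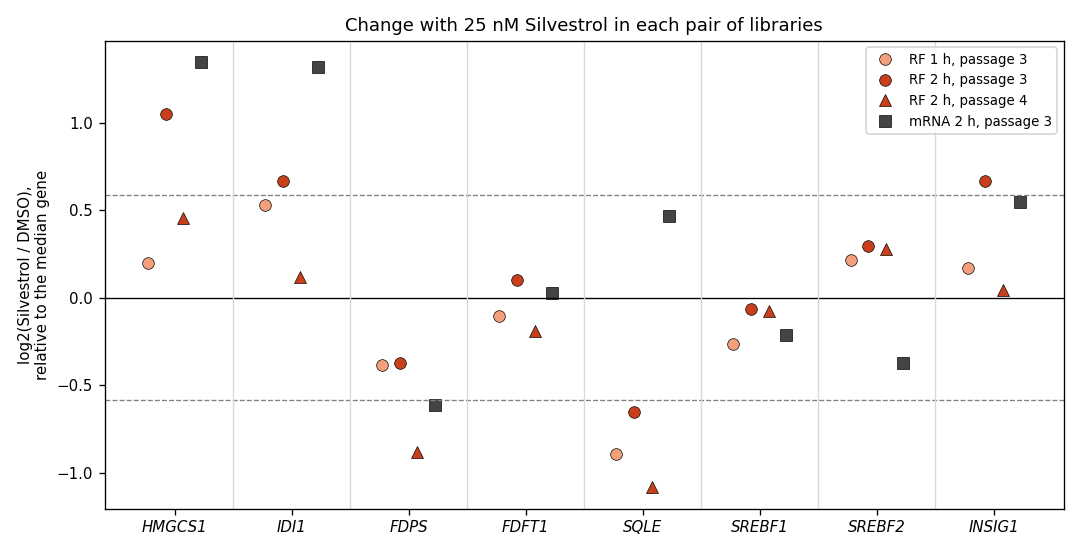
Difference between Silvestrol and DMSO on the log2 scale, relative to the median gene, for RFs at 1 h, RFs at 2 h in each passage and mRNA at 2 h. Each point compares 1 pair of libraries, and the dashed lines mark 1.5-fold. HMGCS1 mRNA and IDI1 mRNA sit highest, at 1.35 and 1.32, while the RF points of SQLE are all below the lower line.

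None of the 8 genes passed the replicated test of RFs at 2 h when the pairing by passage was left out. edgeR's quasi-likelihood test of 2 Silvestrol against 2 DMSO libraries called 0 members, 0 of them at an unadjusted p under 0.05, and DESeq2 also called 0. edgeR called 10.3% of all genes (828 lower and 259 higher) and DESeq2 15% (1008 lower and 563 higher). The estimates were 0.65 ± 0.46 for HMGCS1 (log2 change ± SE, adjusted p = 0.391), 0.39 ± 0.29 for IDI1, 0.25 ± 0.22 for SREBF2 and 0.21 ± 0.45 for INSIG1. They were −1.06 ± 0.65 for SQLE (adjusted p = 0.325), −0.35 ± 0.45 for FDPS, −0.11 ± 0.15 for SREBF1 and −0.10 ± 0.23 for FDFT1. With the passage as a block, which pairs each Silvestrol library with the DMSO library of the same passage, 5 of the 8 genes passed, as did 53.1% of all genes (28.1% lower and 25% higher). SQLE fell by 0.87 ± 0.20 (edgeR adjusted p = 6.42e-05), and HMGCS1 rose by 0.74 ± 0.10 (2.05e-13), IDI1 by 0.45 ± 0.11 (0.000289), INSIG1 by 0.33 ± 0.10 (0.00329) and SREBF2 by 0.26 ± 0.11 (0.0368). FDPS, SREBF1 and FDFT1 did not pass. The share of members is near that of all genes, and the blocked model has 1 residual degree of freedom. With the block and the counted length as an offset, FDPS fell by 0.70 ± 0.16, SQLE fell by 0.95 ± 0.21 and HMGCS1 rose by 0.66 ± 0.12, and 3 members passed, as did 48.5% of all genes. IDI1 (adjusted p = 0.0580), INSIG1 (0.0878) and SREBF2 (0.184) lost their edgeR calls in that fit. Without the block, leaving out a DMSO library sets the remaining one, of 1 passage, against Silvestrol libraries of both, so that the passage enters the contrast and the spread is that of the Silvestrol libraries. Without the DMSO library of passage 3, SQLE was at −1.71 and HMGCS1 at 0.14. Without that of passage 4, SQLE was at −0.11 and HMGCS1 at 1.41.

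After 1 h of Silvestrol, in 1 pair of libraries from passage 3, SQLE was again the lowest of the 8 genes. It had 6.94 RPKM in untreated cells, 6.37 in DMSO and 3.02 in Silvestrol, on 400, 451 and 154 reads. The scaled ratio of Silvestrol to DMSO reads was 0.516, with an exact 95% interval of 0.427 to 0.621. SQLE was 1.85-fold lower than the median gene, the only member past 1.5-fold (14.2% of all genes were lower by as much). IDI1 had 128 RPKM in untreated cells, 128 in DMSO and 162 in Silvestrol, and at 1.44-fold it was the highest member relative to the median gene. No member was at least 1.5-fold higher (0 genes; 5.01% of all genes were). HMGCS1 had 72.1, 73.1 and 73.8 RPKM, which at 1 h was 1.15-fold above the median gene, where at 2 h in the same passage it was 2.07-fold above it. INSIG1 had 70.2, 78.7 and 77.9 RPKM, and was 1.13-fold above the median gene at 1 h. FDPS had 46.6, 43.6 and 29.4 RPKM, FDFT1 283, 292 and 238, SREBF1 30.6, 33.2 and 24.4, and SREBF2 21.2, 22.8 and 23.3. The controls give the scale of these differences. Between DMSO at 1 h and at 2 h, members moved by −0.20 to 0.24 on the log2 scale relative to the median gene, and between untreated cells and DMSO at 2 h by −0.30 to 0.42. No member was 1.5-fold away from the median gene between DMSO at 1 h and at 2 h (0 of 8; 1.11% of all genes were higher and 1.74% lower) or between untreated cells and DMSO (0 of 8; 2.36% higher and 1.49% lower). The lowest value of both ranges was that of SQLE and the highest that of INSIG1. There is no replicate at 1 h, and so no test.

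mRNA levels at 2 h differed most for HMGCS1 and IDI1. HMGCS1 mRNA was 22.0 RPKM in DMSO and 57.7 in Silvestrol, and IDI1 mRNA was 47.2 and 121. They were 2.54-fold and 2.49-fold higher than the median gene, above 99.1% and 98.9% of genes. These were the only members at least 1.5-fold higher (16.3% of all genes were). INSIG1 mRNA was 114 and 171 RPKM, 1.46-fold above the median gene, and SQLE mRNA was 9.01 and 12.8 RPKM, 1.38-fold above it. FDPS mRNA was 86.1 and 58.0 RPKM, the only member at least 1.5-fold lower (13.7% of all genes). FDFT1 mRNA (124 and 130), SREBF1 mRNA (74.9 and 66.5) and SREBF2 mRNA (67.3 and 53.5) were within 1.29-fold of the median gene. So at passage 3 the mRNA of SQLE was higher with Silvestrol while its RFs were lower, and the mRNA of SREBF2 was lower while its RFs were higher. At passage 3, HMGCS1, IDI1 and INSIG1 were higher in both measures and FDPS was lower in both. mRNA was sequenced in 1 library per treatment, so these differences have no replicate check.

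**Figure D3:**
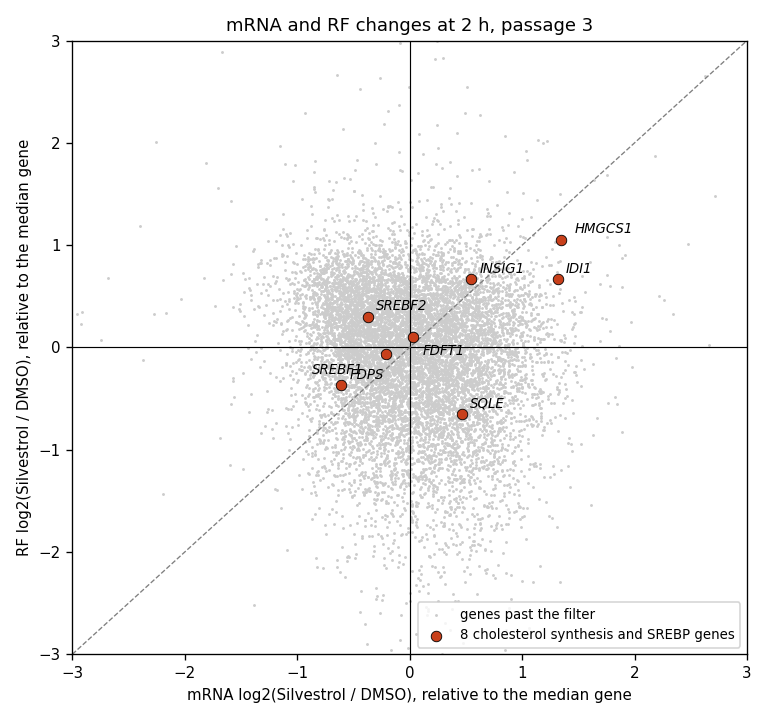
RF change against mRNA change with Silvestrol at 2 h, passage 3, each on the log2 scale relative to the median gene, with the dashed line marking equal changes. Grey points are the 10505 genes past the filter (31 lie outside the axes). HMGCS1 and IDI1 lie far to the right and below the line, and SQLE is the only member at the lower right.

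SQLE and SREBF2 were at the ends of the TE changes of the 8 genes. The log2 change in TE at passage 3 was turned into a z-score over all genes, with thresholds of −1.5 and 1.5. SQLE had the lowest z-score, −1.03, with a TE of 0.61 in DMSO and 0.24 in Silvestrol. IDI1 (2.96 and 1.62) was at −0.56 and HMGCS1 (3.44 and 2.41) at −0.20. SREBF2 had the highest z-score, 0.78, with a TE of 0.36 in DMSO and 0.49 in Silvestrol. FDPS, SREBF1, INSIG1 and FDFT1 were between 0.18 and 0.35. No member passed a threshold (0 of 8; 6.57% of all genes were below −1.5 and 4.7% above 1.5). With the RFs of passage 4 and the same mRNA libraries, SQLE was at −1.51 and passed (1 of 8; 6.75% of all genes were below −1.5 and 4.78% above 1.5), IDI1 was at −1.15, HMGCS1 at −0.82 and SREBF2 at 0.80. In the model of RFs and mRNA, edgeR called 0 members and 0 genes in all, with 0 members and 2692 genes at an unadjusted p under 0.05, while DESeq2 called 0 members and 910 genes. With the passage as a block, 3 members and 49.4% of all genes passed (26.5% lower and 22.9% higher). TE of SQLE fell by 1.31 ± 0.27 on the log2 scale (edgeR adjusted p = 0.000214), that of IDI1 fell by 0.70 ± 0.19 (0.00319) and that of SREBF2 rose by 0.66 ± 0.17 (0.00161). HMGCS1 was at −0.43 ± 0.18 (edgeR adjusted p = 0.0523). With the counted length as an offset as well, 3 members fell, now including HMGCS1 at −0.59 ± 0.18 (edgeR adjusted p = 0.00265). In that fit 1 member rose, and 5215 of 10435 genes passed. Without the block, leaving out a DMSO RF library mixes passages in the same way as in the RF test. The TE change of SQLE was −2.13 without that of passage 3 and −0.56 without that of passage 4. The model has 1 mRNA library per treatment, so the spread of mRNA was not measured.

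RF levels of these genes also differed between the passages. In DMSO, every member had more RFs at passage 4 than at passage 3, by 0.30 (SREBF1) to 1.68 (SQLE) on the log2 scale relative to the median gene. SQLE was 3.20-fold higher, INSIG1 2.58-fold, HMGCS1 2.47-fold, FDPS 1.89-fold, IDI1 1.64-fold and FDFT1 1.61-fold, so that 6 of 8 were at least 1.5-fold higher (14.9% of all genes were) and 0 of 8 at least 1.5-fold lower (7.42%). In Silvestrol the same direction held for all 8, by 0.11 (IDI1) to 1.20 (SQLE), and 3 of 8 were at least 1.5-fold higher (10.6% of all genes) and 0 of 8 lower by as much (7.31%). Being above the median gene in both treatments was found for 8 of 8 members and 35% of all genes. In an edgeR model with the treatment as covariate, added after the data were seen, 7 of 8 members were higher at passage 4, against 15.2% of all genes (26.7% in either direction). Each passage has 1 DMSO and 1 Silvestrol library, and the labels do not say whether they came from 1 culture or separate ones, so the model compares these libraries and not passages in general. The difference was 1.43 ± 0.20 for SQLE, 1.02 ± 0.10 for HMGCS1, 0.98 ± 0.15 for FDPS, 0.97 ± 0.10 for INSIG1, 0.58 ± 0.11 for IDI1, 0.45 ± 0.09 for FDFT1 and 0.43 ± 0.11 for SREBF2. SREBF1, at 0.19 ± 0.11, did not pass. DESeq2 called 6 of 8 higher, without SREBF2 (0.40), and 6.82% of all genes. The passage 4 libraries had 6446356 (DMSO) and 2652423 (Silvestrol) reads against 26176257 and 12010405 at passage 3, and mRNA of passage 4 was not analysed here, so the part of mRNA in this difference was not tested.

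**Figure D4:**
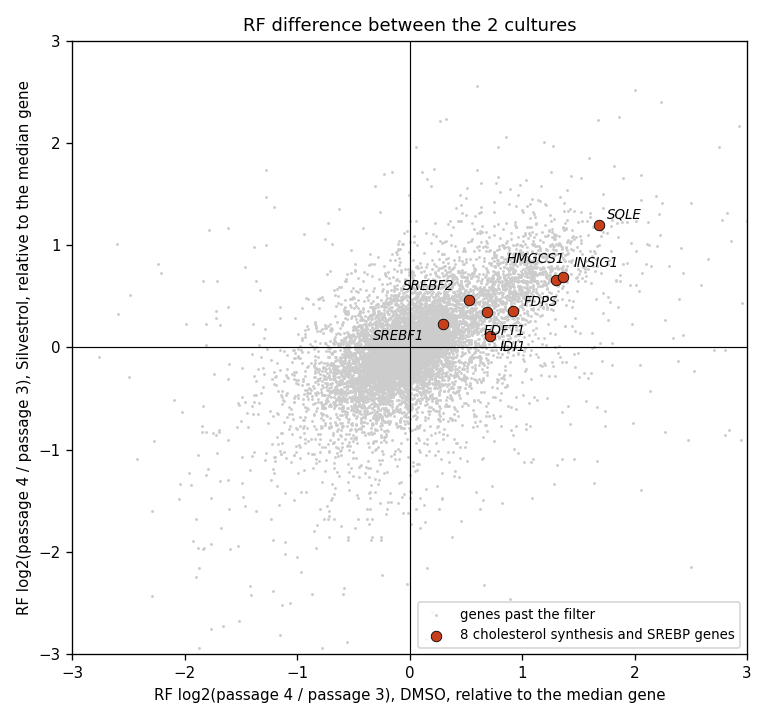
RF difference between passage 4 and passage 3 in Silvestrol-treated cells against that in DMSO-treated cells, each on the log2 scale relative to the median gene. Grey points are 10435 genes (37 lie outside the axes), and all 8 members lie at the upper right, with SQLE farthest out at 1.68 and 1.20.

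With INK128 the members stayed close to the other genes. RF levels were 20.2 FPKM in DMSO and 20.5 in INK128 for HMGCS1, 55.7 and 53.9 for IDI1, 159 and 149 for FDPS, and 84.4 and 74.9 for FDFT1. SQLE had 9.28 and 11.01 FPKM, SREBF1 33.9 and 35.5, SREBF2 18.7 and 20.0, and INSIG1 64.2 and 66.6. Relative to the median gene the RF differences were between −0.19 (FDFT1) and 0.23 (SQLE) on the log2 scale. Total RNA was lower with INK128 in the FPKM of all 8, from 6.53 to 3.67 for FDPS, 4.13 to 2.45 for INSIG1, 3.53 to 1.80 for FDFT1 and 2.58 to 1.31 for SREBF1. It was 2.43 and 1.18 for SREBF2, 1.58 and 0.910 for IDI1, 0.878 and 0.390 for HMGCS1, and 0.389 and 0.159 for SQLE. The median gene was lower by 1.17 on the log2 scale. Relative to it members were between −0.12 (SQLE) and 0.42 (INSIG1), and 6 of 8 lay above it. No member was 1.5-fold away from the median gene in RFs (0 of 8; 3.83% of all genes were higher and 3.62% lower) or in total RNA (0 of 8; 7.97% higher and 2.42% lower). The z-scores of TE ranged from −0.76 (FDPS) to 0.14 (HMGCS1) for the 7 members past the filter, and 0 of 7 passed a threshold (5.58% of all genes were below −1.5 and 1.75% above 1.5). Scaled by median and MAD, FDPS was at −1.55, and 12.3% of all genes were below −1.5. SREBF2, with its 6 pyrimidines at the 5′ end, was at 0.03. These are 1 library per group, with no read counts, so there is no test and no counting interval.

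**Figure D5:**
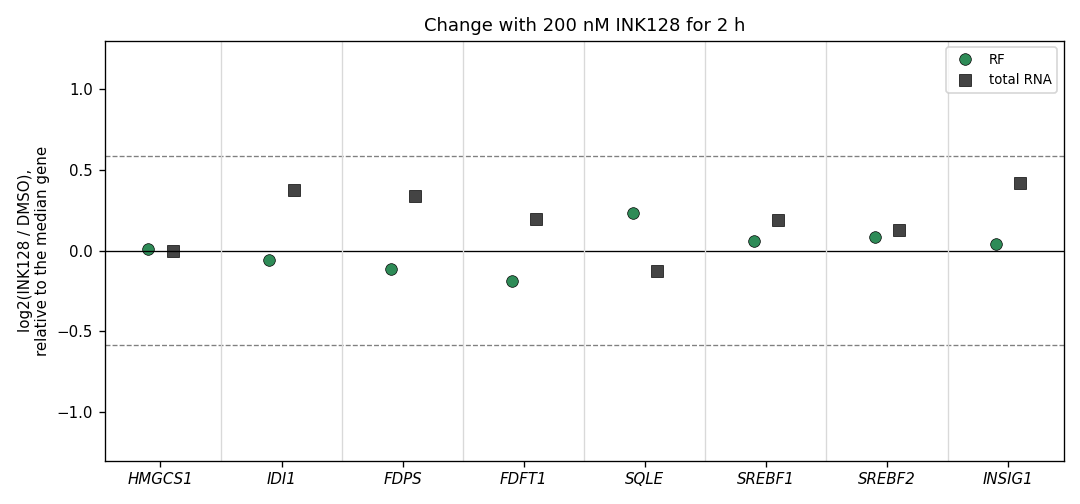
Difference between INK128 and DMSO at 2 h for RFs (circles) and total RNA (squares), on the log2 scale relative to the median gene, with 1 pair of libraries per point. All points lie inside the dashed lines that mark 1.5-fold, and the highest is total RNA of INSIG1 at 0.42.

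In 7 lists, 43 other genes of the pathway were followed, and 40 passed the filter for Silvestrol. In the edgeR test of RFs at 2 h, 2 of the 40 were lower and 0 were higher, against 7.88% and 2.47% of all genes. Their median log2 change was 0.04, that of the members was 0.06 and that of all genes was −0.01. INSIG2, the second retention factor, had 26.4 RPKM in DMSO and 10.6 in Silvestrol at passage 3, and 37.8 and 13.5 at passage 4, on 118 and 31 reads in the Silvestrol libraries. It fell by 1.301 ± 0.27 (adjusted p = 0.0443), and its mRNA was 14.2 and 17.1 RPKM. NR1H2, which encodes LXRβ, a nuclear receptor for oxysterols that drives sterol efflux and SREBF1, had 37.1 and 9.04 RPKM at passage 3 and 27.8 and 9.82 at passage 4. It fell by 1.66 ± 0.23 (adjusted p = 0.0226), with mRNA of 66.9 and 51.3 RPKM. At 1 h INSIG2 was at 26.4 RPKM in DMSO and 16.02 in Silvestrol, and NR1H2 at 37.4 and 14.0. INSIG2 also fell with the passage as a block, by 1.25 ± 0.20 (edgeR adjusted p = 2.27e-09), while INSIG1 did not pass the test without the block, passed as higher with it and lost that call with the offset for counted length. The difference between the paralogs was not tested. Leaving out either Silvestrol library left 0 genes called in the whole table by edgeR (1617 and 1930 at an unadjusted p under 0.05), while the estimates were −1.18 and −1.43 for INSIG2 and −1.66 and −1.68 for NR1H2. Without the DMSO library of passage 4, INSIG2 was at −1.07 (edgeR adjusted p = 0.0531). In the z-scores of TE at passage 3, INSIG2 was at −1.29, NR1H2 at −1.36 and GGPS1, the geranylgeranyl diphosphate synthase, at −1.32. None of these passed −1.5. With the RFs of passage 4, INSIG2 (−1.52) and GGPS1 (−1.71) passed, where 6.75% of all genes were below −1.5, and NR1H2 was at −0.86. GGPS1, named after its values were seen, had 23.5 RPKM in DMSO and 16.7 in Silvestrol at passage 3, and 38.4 and 22.0 at passage 4, with mRNA of 4.50 and 9.80 RPKM.

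By list, none of the 6 mevalonate and isoprenoid genes tested passed the edgeR test without the block (0 lower, 0 higher). Nor did any of the 11 genes of the sterol steps after squalene epoxide or the 4 uptake and transport genes. The same held for the 8 fatty acid synthesis genes and the 4 genes of ubiquitin-dependent degradation. In the SREBP retention and cleavage list 1 of 4 fell (INSIG2), with a list median of −0.77, and in the LXR and sterol efflux list 1 of 3 fell (NR1H2). DESeq2 called 3 of the 40 lower and 1 higher, against 1008 and 563 of all 10505 genes. Besides INSIG2 and NR1H2, ELOVL6 of the fatty acid list fell by 1.08 ± 0.36 (DESeq2 adjusted p = 0.0232). MVD of the mevalonate list rose by 0.70 ± 0.25 (DESeq2 adjusted p = 0.0371). With the passage as a block 11 of the 40 fell and 11 rose, again near the share of all genes. SCAP had 4.59 and 3.29 RPKM at passage 3 and 6.64 and 4.07 at passage 4 (−0.49 ± 0.25), with the block −0.44 ± 0.18 (edgeR adjusted p = 0.0259). Between passages, 37 of the 40 genes lay above the median gene in DMSO and 33 of 40 in Silvestrol, with list medians of 0.74 and 0.45. In the passage model 28 of the 40 were higher at passage 4. With INK128, FASN, the fatty acid synthase, was the only gene of these lists past the filter and a z-score threshold, at −1.55, with RFs of 92.9 FPKM in DMSO and 53.3 in INK128.

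The genes most like SQLE in their 6 log2 changes (RFs at 1 h, RFs at 2 h in each passage, mRNA, and RFs and total RNA with INK128) were TFDP2, MTMR3 and ADIPOR2 of 9270 compared. The root mean square difference from SQLE was 0.144 for TFDP2, 0.165 for MTMR3 and 0.167 for ADIPOR2, against a median of 0.765 over all genes. The 6 changes were −0.88, −1.02, −1.15, 0.32, 0.17 and −1.25 for TFDP2. They are not relative to the median gene. The likeness is a description over 6 pairs of libraries.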

How the data were processed

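RFs and RNA of MDA-MB-231 cells were studied in 9 libraries for Silvestrol and 4 for INK128. For Silvestrol the authors removed linkers and rRNA reads and used Bowtie, allowing 2 mismatches and 16 alignments, against hg19 with canonical UCSC KnownGene transcripts. The authors deposited counts of reads that map to one place, by P-site for RFs and by the middle of the read for mRNA. They also deposited RPKM values, which leave out positions that are not unique or overlap, so that counted length varies. The submitters' processing notes name CASAVA 1.8.1 and Bowtie2. For INK128 the authors deposited FPKM values without counts, and the tool is not given in the sources used here. Among the 600 lowest genes the commonest ratio of INK128 to DMSO FPKM was 1.05 for total RNA and 1.01 for RFs. Only 23 and 8 of these genes had that ratio, so it is not typical of them. Deposited TE, log2 and z-score columns are the authors' comparisons and were not used. No sample column was left out (0 columns).

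For 546 symbols with several entries, that with the highest mean RPKM of RFs was used. Genes needed means of at least 1 for RFs and 0.3 for RNA, and values above 0. Counts of RFs at 2 h (2 against 2) were tested with edgeR 4.0.16 (TMM, quasi-likelihood) in R 4.3.3, and TE by whether the treatment effect differed between RFs and mRNA (an interaction term, 6 libraries). Adjustment was by Benjamini-Hochberg over all genes, at 0.05. DESeq2 1.42.0 was an alternative. In simulated counts for these 2 tests 200 of 10505 genes were shifted by 2 (log2). Of these 163 were called for RFs, with 12 others, and 54 for TE, with 13 others. The shift is larger than any member's estimate in these tests, and no passage effect was simulated. These counts do not describe the power at the members' sizes. Pairs of single libraries were compared at 1.5-fold from the median gene, with no test. Per the labels DMSO and Silvestrol share a passage. The deviations of their passage 3 libraries from the group means correlated with r = 0.662 over 10505 genes, so the passage pairs the samples. The RF and TE tests without the block leave this pairing out. The replicates are passages of 1 line.

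GENCODE 44 on GRCh37 gave the 5′ UTRs, folded with RNAfold 2.7.2. Members and lists were chosen with earlier results of these data known. Of the lists, genes past the RF test without the block, with edgeR or DESeq2, are named. So are genes past a z-score threshold with the passage 3 RFs or INK128, and SCAP and INSIG2. GGPS1 was added after its values were seen. Also named are the 3 genes nearest to the member with the largest RF estimate. Items withheld from the text are not reported here.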

Additional observations from a re-analysis of the deposited data

Results flagged for a closer look

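The RF RPKM of 2 members had opposite signs of change with Silvestrol in the 2 passages. IDI1 changed by 0.49 on the log2 scale at passage 3 and by −0.032 at passage 4. INSIG1 changed by 0.49 at passage 3 and by −0.11 at passage 4. Each is 1 pair of libraries, and the difference between the passages was not tested. Reads scaled to library totals gave a ratio for IDI1 above 1 in both passages, 1.51 and 1.11. Its counted lengths at passage 4, scaled to the median gene of each library, were 577 (DMSO) and 637 bases (Silvestrol). For INSIG1 the ratio of scaled reads was 1.498 and 0.955. At passage 3 the exact 95% interval of this ratio was 1.41 to 1.62 for IDI1 and 1.41 to 1.59 for INSIG1. At passage 4 it was 0.979 to 1.26 for IDI1 and 0.868 to 1.05 for INSIG1, so no difference was detectable at this depth. These intervals cover counting error only. Relative to the median gene all 4 RPKM changes were above 0.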

How the results depend on the processing

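In the RF test at 2 h, the replicate block by passage called 1 member lower and 4 higher and 5583 genes in all, and the block with the offset for counted length (added after the data were seen) 2 lower, 1 higher and 5059 in all. Leaving out 1 library gave 0 to 1 members lower, 0 to 1 higher and 0 to 1298 genes, with 0 without either Silvestrol library. In the TE model, DESeq2 called 910 genes and no filter 356 genes. The block called 2 members lower, 1 higher and 5190 genes, and the block with the offset 3 lower, 1 higher and 5215 genes. Leaving out 1 library gave 0 to 1 members lower and 0 to 1211 genes. Between the passages DESeq2 called 6 members and 1083 genes, against 7 and 2803 with edgeR. With the RFs of passage 4, 1 member (SQLE) and 6.75% of all genes had a z-score below −1.5. With median and MAD, 1 member had an INK128 z-score below −1.5 (FDPS, −1.55), as had 12.3% of all genes, and with a minimum of 5 only 1 member could be scored. With a pseudocount of 0.5 the median total RNA change of the members, 0.20 relative to the median gene, became −0.0706.

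Some estimates changed sign, and none passed the threshold in the fit that turned it or in the fit without block and offset. In the RF test, leaving out 1 library gave −0.297 to 0.978 for INSIG1, −0.822 to 0.264 for FDPS and −0.372 to 0.233 for FDFT1. In the TE model it gave −0.147 to 0.928 for FDPS, −1.01 to 0.252 for HMGCS1, −0.340 to 0.255 for FDFT1 and −0.747 to 0.521 for INSIG1. The TE change of FDFT1 was 0.00357 with DESeq2, that of FDPS was −0.0829 with the offset and that of SREBF1 was −0.0575 without TMM. The cause of these changes was not tested. The passage 4 libraries are the shallowest of the Silvestrol experiment, with 244 reads of SQLE in DMSO and 44 in Silvestrol.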
